A study of Mus musculus with 12 samples.

Results

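Bone morphogenetic protein (BMP) signalling and the Id genes were examined in primary mouse oligodendrocytes (OLs) through 10 genes, chosen by symbol. They were the ligands Bmp2, Bmp4 and Bmp7, the receptors Bmpr1a, Bmpr1b and Bmpr2, the signal transducer Smad1, and the target genes Id1, Id3 and Id4. All 10 were found among the 56860 named genes of the count table, and all 10 passed the filter on low counts that left 16600 genes for testing. OLs were prepared from the cortex of newborn C57BL/6J mice by magnetic selection of cells bearing the O4 surface antigen, expanded with PDGF-AA, differentiated with thyroid hormone, CNTF and insulin, and transfected. The labels give the tissue as the medial prefrontal cortex and no engineered allele. The siEgr2 group (n = 6 libraries) received siEgr2 to lower Egr2, an early growth response transcription factor studied for its part in myelination. The study describes this reagent as a small interfering RNA in one place and as an interfering plasmid in another, and the labels do not settle which was used. The siNC group (n = 6 libraries) is the negative control, for which the methods name a scrambled small interfering RNA. The labels put the siEgr2 treatment at 48 h. Nothing in the labels says that the libraries of a group came from separate cultures or animals, so p-values measure the spread between these libraries, which may be technical.

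BMP ligands are secreted proteins of the TGF-beta superfamily that bring type II receptors such as Bmpr2 together with type I receptors such as Bmpr1a and Bmpr1b. The type I receptor then phosphorylates Smad1, Smad5 and Smad9, which enter the nucleus with Smad4 and switch on target genes, the Id genes among the best known. Id proteins hold basic helix-loop-helix (bHLH) factors in dimers that cannot bind DNA, and in the oligodendrocyte lineage BMP signalling and Id proteins are known for holding back differentiation and for favouring astrocyte fates.

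The libraries of the groups differed in depth and composition. The siNC libraries held 28682946 to 39383014 counts and the siEgr2 libraries 8034251 to 16683677, and ribosomal and other structural RNA took 0.196% to 1.11% of the counts in siNC and 10.7% to 16.8% in siEgr2. Egr2 itself lay between 3.89 and 7.06 CPM (counts relative to the TMM-scaled library total) in siNC and between 2.22 and 4.86 in siEgr2, with a log2 fold change of -0.51 (SE 0.21, adjusted p = 0.0981), so the targeted gene did not pass the test and its groups overlapped. Scaled by library size alone, Egr2 was at -0.70 and passed (adjusted p = 0.0144). The cultures expressed OL markers, with summed levels of 6391 to 7199 CPM in siNC and 5856 to 6179 CPM in siEgr2 for 8 myelinating OL markers. They also expressed 10 astrocyte markers at 8295 to 8995 CPM in siNC and 5321 to 6011 CPM in siEgr2, although the methods select O4-positive cells. Because whole cultures were sequenced, fewer cells of a type and less RNA per cell cannot be told apart.

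Among the BMP and Id genes, the ligand gene Bmp7 rose 1.55-fold in siEgr2 and the target genes Id1, Id3 and Id4 fell 1.62-fold, 1.36-fold and 1.48-fold. The 3 receptor genes and Smad1 had smaller differences or wide intervals, and of them Bmpr1a alone passed the adjusted p threshold. Calls required both an adjusted p below 0.05 in edgeR's quasi-likelihood test and a log2 fold change of more than 0.5 in size, and 3 of the 10 genes met them, against 7.72% of all genes tested. Bmp7 was called higher, where 2.63% of all genes were, and Id1 and Id4 were called lower, where 5.08% of all genes were. By the adjusted p alone 5 of the 10 passed, 1 higher and 4 lower, against 19.9% of all genes. The siEgr2 and siNC libraries did not overlap for 4 of the 10 genes (Bmp7, Id1, Id3 and Id4), against 11.2% of all genes. The median log2 fold change of the 10 genes was -0.31 and that of all genes tested was 0.0046.

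**Figure D1:**
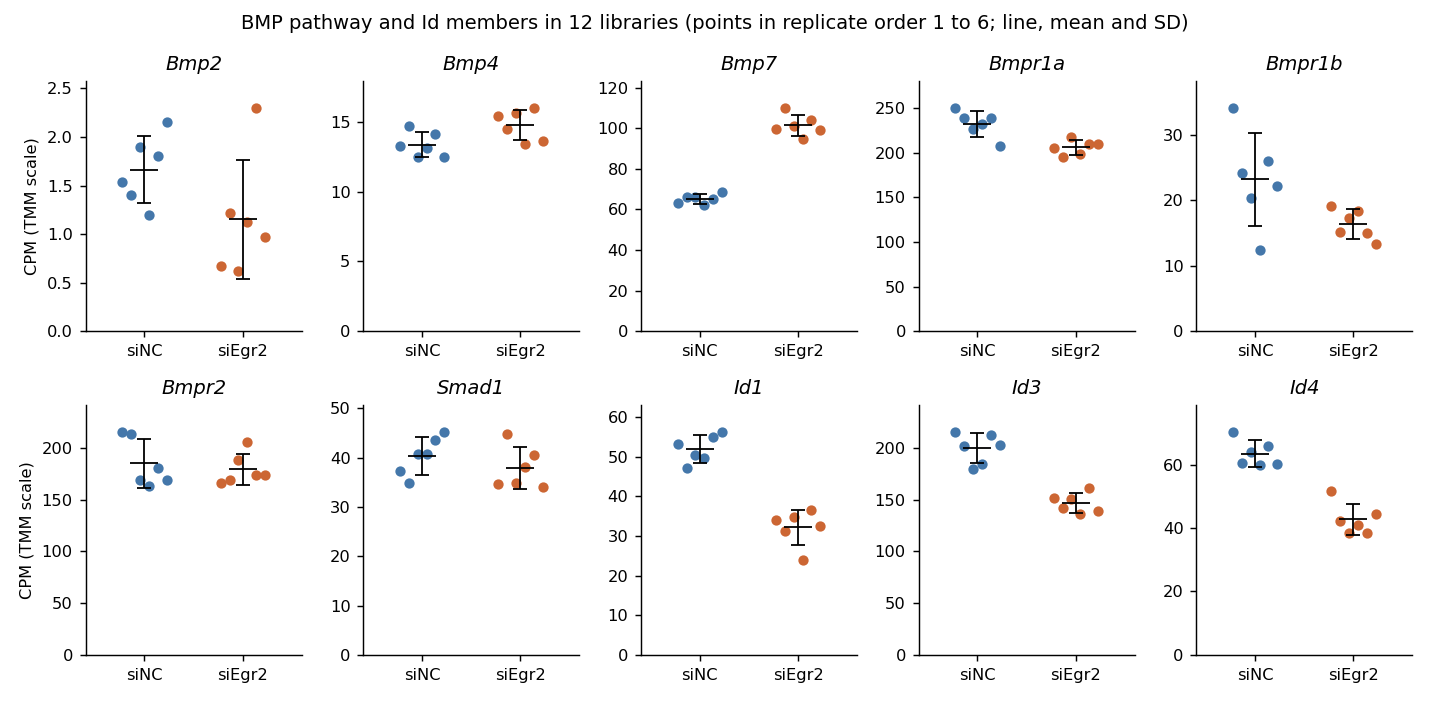
Level of each of the 10 genes (vertical axis, CPM on the TMM scale) in the 6 siNC libraries (blue) and the 6 siEgr2 libraries (orange), with 1 point per library and lines for the mean and SD. The groups were separate for Bmp7, with siEgr2 above siNC, and for Id1, Id3 and Id4, with siEgr2 below siNC, and they overlapped for the other 6 genes.

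Of the ligands, Bmp7 showed the clearest difference. Bmp7 (chromosome 2, 172868012 to 172940321, minus strand, GRCm38) encodes a ligand that also patterns kidney, eye and skeleton. In siNC its level was 63.2, 66.2, 66.1, 62.1, 65.0 and 68.6 CPM in replicates 1 to 6, and in siEgr2 it was 99.4, 110.0, 100.8, 94.6, 103.6 and 99.1 CPM. The lowest siEgr2 library exceeded the highest siNC library, and the variation within a group was small. The means were 65.2 ± 2.31 CPM in siNC and 101.2 ± 5.18 CPM in siEgr2 (SD, n = 6 each), a log2 fold change of 0.63 (SE 0.045, 95% interval 0.54 to 0.73, adjusted p = 1.02e-07). Scaled by library size alone, which shifted the median of all genes to -0.18, the log2 fold change of Bmp7 was 0.45 (adjusted p = 5.31e-06) and below the fold threshold, and with every library thinned to the smallest total it was 0.66.

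Bmp4 (chromosome 14, 46383520 to 46390669, minus strand) encodes the ligand most used in culture to turn OL precursors towards astrocytes. Its level ran from 12.5 to 14.7 CPM (median 13.2) in siNC and from 13.4 to 16 CPM (median 14.9) in siEgr2. The groups overlapped, although all 6 siEgr2 libraries lay above the siNC median. Bmp4 had a log2 difference of 0.14 (SE 0.082, 95% interval -0.033 to 0.32, adjusted p = 0.258), and its sign turned to -0.040 when scaled by library size alone.

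Because Egr2 was the gene targeted, the promoters of the 10 genes were searched for the letters that EGR factors are known to bind, GCGTGGGCG, for its core GTGGGCG, which lies within the longer motif, and for the BMP-Smad element GGCGCC, on both strands. The RefSeq table of GRCm38.p6 promoters, from 250 bases before to 50 bases after each start, held 9 entries for 7 of the 10 genes (Bmp4, Bmpr1a, Bmpr1b, Bmpr2, Smad1, Id3 and Id4). The full EGR motif was in 0 of the 9 entries and in 0.612% of all 32851 promoters. The core was in 2 of the 9, those of Bmp4 and Bmpr1b, and in 7.97% of all promoters. GGCGCC was in 3 of the 9, those of Id4, Bmpr1a and Bmpr2, and in 11.9% of all promoters. A match describes these letters and shows neither a bound site nor a cause. The 250 bases before the start of Bmp4 (chr14:46390670-46390919, minus strand), the member promoter with the core nearest to its start, are shown with the core in capitals, 40 bases before the start, beside those of Id4 (chr13:48260866-48261115, plus strand), the 1 called gene with an entry, with GGCGCC in capitals, 148 bases before the start.
Bmp4: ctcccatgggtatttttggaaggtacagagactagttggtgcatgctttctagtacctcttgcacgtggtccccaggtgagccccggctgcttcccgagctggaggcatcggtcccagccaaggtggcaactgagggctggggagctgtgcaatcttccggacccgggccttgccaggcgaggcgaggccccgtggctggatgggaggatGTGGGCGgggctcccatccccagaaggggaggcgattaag
Id4: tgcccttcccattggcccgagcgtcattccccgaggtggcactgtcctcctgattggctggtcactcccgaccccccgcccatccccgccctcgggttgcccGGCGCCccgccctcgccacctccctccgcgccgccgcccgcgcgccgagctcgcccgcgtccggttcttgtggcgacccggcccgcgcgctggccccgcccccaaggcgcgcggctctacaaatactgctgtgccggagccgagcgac

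Bmp2 (chromosome 2, 133552159 to 133562885, plus strand), a close relative of Bmp4 best known for bone formation, had the fewest counts of the 10 genes. It had 41 to 90 counts per library in siNC and 10 to 18 in siEgr2, with levels of 1.20 to 2.15 CPM (median 1.67) in siNC and 0.618 to 2.30 CPM (median 1.05) in siEgr2. In siEgr2, 5 of the 6 libraries lay at or below 1.22 CPM and replicate 5, the shallowest library, held the highest level of either group. Bmp2 had a log2 fold change of -0.59 (SE 0.32, 95% interval -1.26 to 0.083, adjusted p = 0.219). Without siEgr2 replicate 5 it was -0.87 (adjusted p = 0.0461) and Bmp2 was called lower, so this 1 library decided the call.

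Among the receptor genes, Bmpr1a (chromosome 14, 34410734 to 34503341, minus strand), a type I receptor also named ALK3, was slightly lower in siEgr2. Its level ran from 207.0 to 249.6 CPM (median 235.1) in siNC and from 195.1 to 216.8 CPM (median 206.9) in siEgr2. The groups overlapped through siNC replicate 6, the lowest of its group. The means were 231.9 ± 14.6 CPM and 205.5 ± 8.08 CPM (SD, n = 6 each), with a log2 fold change of -0.17 (SE 0.045, 95% interval -0.27 to -0.080, adjusted p = 0.0108), which met the adjusted p threshold and fell short of the fold threshold. With all alternatives for scaling, filter, tool and left-out library, Bmpr1a stayed between -0.36 and -0.15 and its adjusted p reached 0.0321 at most.

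Bmpr1b (chromosome 3, 141837136 to 142169425, minus strand), the other type I receptor, ALK6, was the most variable receptor gene. It ranged from 12.4 to 34.1 CPM (median 23.2) in siNC and from 13.3 to 19.1 CPM (median 16.3) in siEgr2. In siNC, replicate 1 was highest and replicate 4 lowest, below every siEgr2 library, and the other 4 siNC libraries lay above every siEgr2 library. Bmpr1b had a log2 fold change of -0.50 (SE 0.19, 95% interval -0.91 to -0.088, adjusted p = 0.0860). Without siNC replicate 4 it was -0.63 (adjusted p = 0.00339) and Bmpr1b was called lower, and scaled by library size alone it was called as well, at -0.68.

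Bmpr2 (chromosome 1, 59763400 to 59879014, plus strand), the type II receptor, ranged from 163.1 to 216.0 CPM (median 175.4) in siNC and from 165.7 to 206.2 CPM (median 174.2) in siEgr2. The siEgr2 libraries lay wholly within the siNC range. The log2 fold change was -0.047 (SE 0.078, adjusted p = 0.736), and its 95% interval of -0.21 to 0.12 left room for a change of that size in either direction. Smad1 (chromosome 8, 79338395 to 79399518, minus strand), which carries the signal from the receptor to the nucleus, ranged from 34.9 to 45.3 CPM (median 40.7) in siNC and from 34.1 to 44.9 CPM (median 36.4) in siEgr2. The groups overlapped over nearly their whole range. The log2 fold change of Smad1 was -0.096 (SE 0.081, 95% interval -0.27 to 0.076, adjusted p = 0.455). Counts of RNA do not measure the phosphorylated form of the protein, which is the active one. Scaled by library size alone, Bmpr2 and Smad1 were at -0.23 and -0.28 with adjusted p of 0.0316 and 0.0159, in the presence of the shift of all genes to -0.18.

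The Id genes moved together in direction, and each of the 3 fell under every scaling, tool and left-out library tried. Id1 (chromosome 2, 152736251 to 152737410, plus strand), a direct target of BMP-Smad signalling in many cell types, had the largest fall. Its level in siNC was 53.3, 47.3, 50.4, 49.6, 54.9 and 56.4 CPM in replicates 1 to 6, and in siEgr2 it was 34.1, 31.4, 34.6, 23.9, 36.5 and 32.5 CPM. Every siEgr2 library lay below every siNC library, and replicate 4 of siEgr2 was lowest. The means were 52.0 ± 3.44 CPM and 32.2 ± 4.42 CPM (SD, n = 6 each), a log2 fold change of -0.69 (SE 0.086, 95% interval -0.88 to -0.51, adjusted p = 2.50e-05). Over the alternatives Id1 lay between -0.87 and -0.62 and was called in each.

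Id3 (chromosome 4, 136143497 to 136145755, plus strand), which often overlaps Id1 in expression and function, was the most abundant of the 3. Its siNC levels were 216.0, 201.7, 180.3, 185.3, 213.0 and 203.2 CPM in replicates 1 to 6, and its siEgr2 levels were 152.0, 142.3, 151.2, 135.8, 160.8 and 139.3 CPM. The highest siEgr2 library remained below the lowest siNC library. The means were 199.9 ± 14.4 CPM and 146.9 ± 9.39 CPM (SD, n = 6 each), a log2 fold change of -0.44 (SE 0.054, 95% interval -0.56 to -0.33, adjusted p = 2.09e-05). This fell short of the fold threshold, so Id3 was not called, and its interval spans the threshold.

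Id4 (chromosome 13, 48261228 to 48266026, plus strand) encodes the Id protein best known for binding Olig1 and Olig2 and for the timing of OL differentiation. In siNC it was at 70.4, 60.4, 64, 59.7, 65.8 and 60.1 CPM in replicates 1 to 6, and in siEgr2 at 51.7, 42.1, 38.4, 41.1, 38.4 and 44.5 CPM. The groups did not overlap, and siEgr2 replicate 1 was nearest to siNC. The means were 63.4 ± 4.22 CPM and 42.7 ± 4.98 CPM (SD, n = 6 each), a log2 fold change of -0.57 (SE 0.073, 95% interval -0.72 to -0.41, adjusted p = 3.85e-05). Over the alternatives Id4 lay between -0.75 and -0.53 and was called in each.

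Id2, the remaining gene of the Id family and not among the 10, did not pass the test. Its siNC libraries fell into clusters, with replicates 1, 2 and 5 at 97.7, 90.7 and 92.3 CPM and replicates 3, 4 and 6 at 43.8, 49.2 and 47.2 CPM. The siEgr2 libraries lay between 85.0 and 105.3 CPM, level with the upper siNC cluster. The log2 fold change of Id2 was 0.39 (SE 0.22, 95% interval -0.10 to 0.88, adjusted p = 0.265), and the spread between siNC libraries exceeded the difference between the groups.

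**Figure D2:**
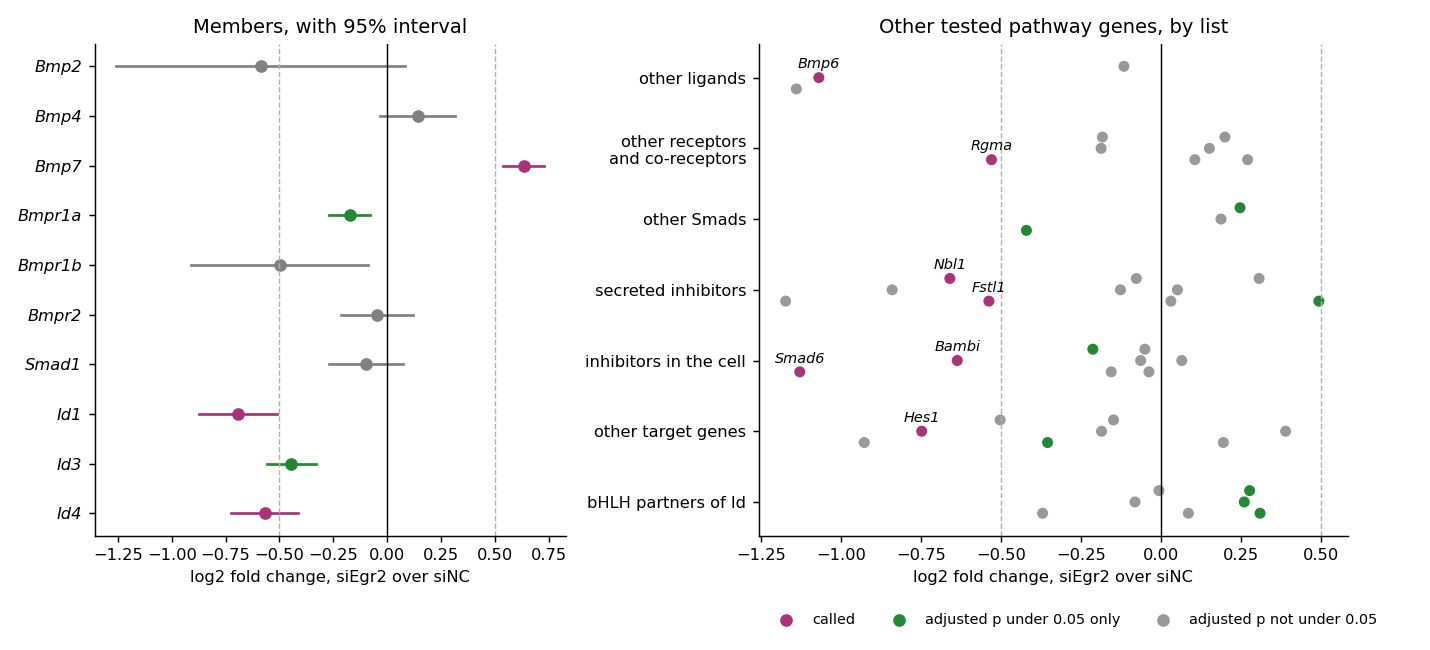
Log2 fold change of siEgr2 over siNC (horizontal axes) for the 10 genes with 95% intervals (left) and for the 46 other pathway genes that were tested, grouped by role (right, 1 point per gene). Dashed lines mark the fold threshold of 0.5, purple marks called genes, green marks genes past the adjusted p threshold only, and grey marks the rest. The interval of Bmp7 lies above 0.5, those of Id1, Id3, Id4, Bmpr1a and Bmpr1b lie below 0, and the 7 called genes on the right all lie below -0.5.

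Depth and structural RNA separated the groups in the same way as these genes did. With every library thinned to the smallest total, the log2 fold changes of Bmp7, Id1, Id3 and Id4 were 0.66, -0.63, -0.45 and -0.53, and with the structural RNA genes left out before scaling they were 0.64, -0.69, -0.44 and -0.56. Thinning made the totals equal but not the counts left for other genes, since the share of structural RNA still differed between the groups. Any other part of library preparation or treatment that differed between the groups cannot be told apart from siEgr2.

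Ratios between genes of the same role within a library do not depend on the scaling, and 9 were compared by a two-sided exact permutation test over the 924 assignments of 6 against 6 libraries. The smallest p this design allows is 0.00216, and adjusted values are over the 9 ratios. The count ratio of Bmp4 to Bmp7 fell from 0.205 in siNC to 0.146 in siEgr2, a log2 difference of -0.49 (exact permutation p = 0.00216, adjusted p = 0.00974), with no overlap between the groups. The ratio of Bmp2 to Bmp7 fell as well, with a log2 difference of -1.24 (exact permutation p = 0.00649, adjusted p = 0.0195), although siEgr2 replicate 5 lay among the siNC libraries. Bmp7 thus took a larger share of the ligand counts in siEgr2.

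Among the Id genes, the ratio of Id1 to Id3 fell by 0.26 on the log2 scale (exact permutation p = 0.00216, adjusted p = 0.00974), from 0.260 in siNC to 0.218 in siEgr2, with no overlap. With every library thinned to the same total this difference was -0.19 with an adjusted p of 0.123 by the exact permutation test, and so did not pass. The ratios of Id1 to Id4 and of Id3 to Id4 differed by -0.13 and 0.13 on the log2 scale, with adjusted p of 0.331 and 0.239 in the exact permutation test. The receptor ratios did not pass either, with Bmpr1b to Bmpr2 at -0.41 (adjusted p = 0.0779), Bmpr1a to Bmpr2 at -0.13 (adjusted p = 0.172) and Bmpr1a to Bmpr1b at 0.28 (adjusted p = 0.239) in the exact permutation test. The ratio of Bmp2 to Bmp4 had a log2 difference of -0.75 (exact permutation, adjusted p = 0.0779). Without siNC replicate 4 the ratios of Bmpr1a to Bmpr1b and of Bmpr1b to Bmpr2 passed, at 0.44 and -0.54 (exact permutation, adjusted p = 0.0234 and 0.0146), and without siEgr2 replicate 5 that of Bmp2 to Bmp4 passed, at -0.95 (exact permutation, adjusted p = 0.00649).

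**Figure D3:**
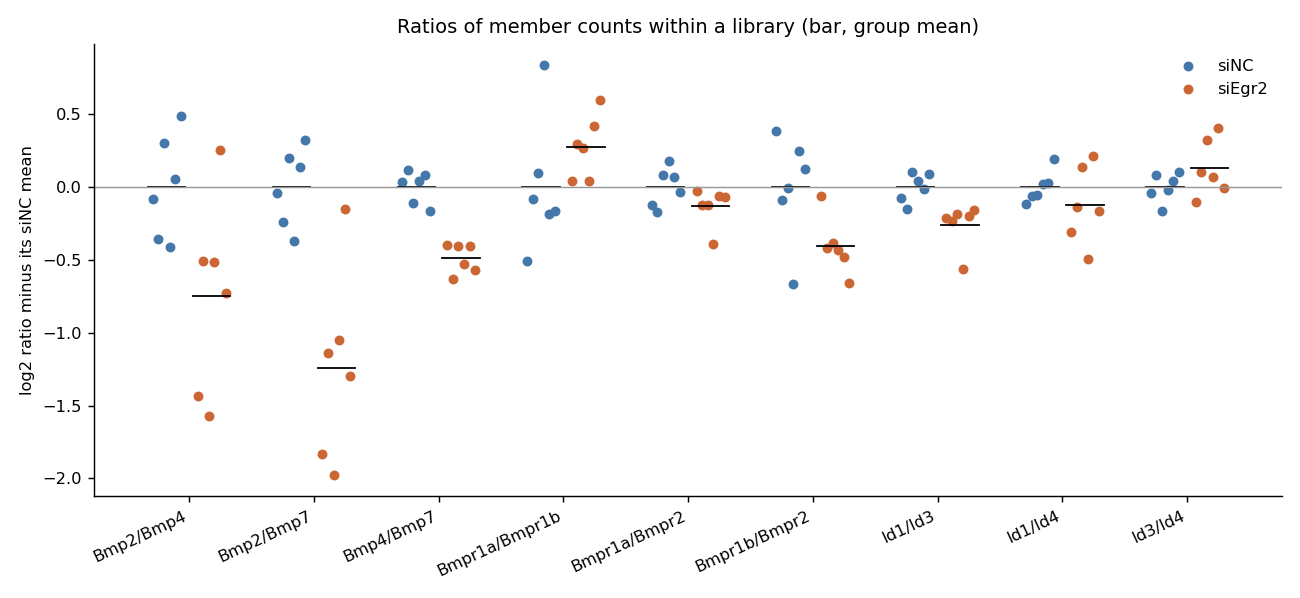
Log2 ratio of the counts of gene pairs of the same role within each library, minus the siNC mean of that ratio (vertical axis), for 9 pairs, with siNC in blue, siEgr2 in orange and bars for the group means. The groups were separate for Bmp4/Bmp7, at a difference of -0.49, and for Id1/Id3, at -0.26, and overlapped for the other 7 pairs.

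Levels were compared between genes per kilobase of exon (CPM per kb), since longer transcripts give more counts. In siNC, Id3 was highest at 111.6 ± 8.05 CPM per kb, followed by Id1 at 44.8 ± 2.97 and Bmpr1a at 36.5 ± 2.29 (SD, n = 6). Id4 at 16.5 and Bmp7 at 16.2 CPM per kb came next and overlapped between libraries, and Bmpr2 stood at 10.3. Smad1, Bmp4 and Bmpr1b, at 6.45, 5.95 and 3.89 CPM per kb, overlapped each with its neighbour, and Bmp2 was lowest at 0.469. Bmp7 was therefore the most abundant of the 3 ligand transcripts per length, and Bmpr1a of the 3 receptor transcripts. In siEgr2 the order changed in the middle. Id3 was still highest at 82.0 CPM per kb, while Bmpr1a at 32.4, Id1 at 27.7 and Bmp7 at 25.2 overlapped each with the next, so that Id1 no longer stood above Bmpr1a and Bmp7 stood clear of Id4 at 11.1.

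**Figure D4:**
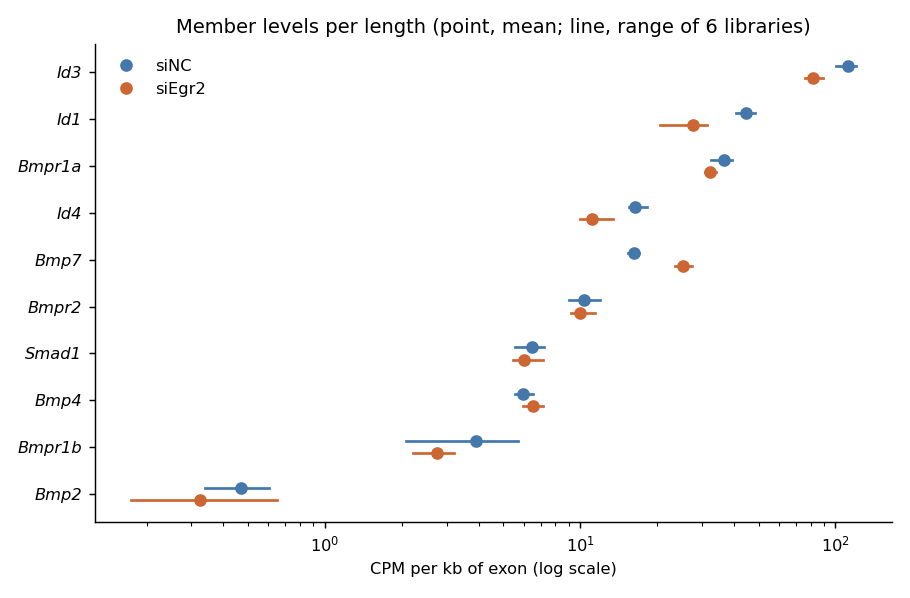
Level of the 10 genes per kilobase of exon (horizontal axis, CPM per kb, log scale) in siNC (blue) and siEgr2 (orange), with points for the mean and lines for the range of 6 libraries. Levels run from 0.324 CPM per kb for Bmp2 in siEgr2 to 111.6 for Id3 in siNC.

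Outside the 10 genes, 63 other genes of the BMP pathway were listed by role, of which 46 passed the filter on low counts. None was called higher and 7 were called lower (Bmp6, Rgma, Fstl1, Nbl1, Smad6, Bambi and Hes1), against backgrounds of 2.63% and 5.08% of all genes, and the median log2 fold change was -0.098. By the adjusted p of edgeR alone 5 were higher and 10 lower, against 19.9% of all genes in either direction (1423 higher and 1877 lower), and the same 5 were higher at an unadjusted p below 0.05. A single gene was called higher by DESeq2, by limma-voom, with structural RNA genes left out, without siNC replicate 3 or 4, and without siEgr2 replicate 1, 5 or 6. Listed at 0 counts in all libraries were Bmp10, Gdf2, Hjv, Chrdl2 and Gata3.

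Of the other ligands, 3 of 11 were tested and 1 was called lower. Bmp6, a ligand known for control of iron balance, ran from 30.1 to 35.8 CPM in siNC and from 12.2 to 19.5 CPM in siEgr2, with no overlap. Its log2 fold change of -1.07 (SE 0.11, adjusted p = 2.97e-06) was opposite in sign to that of Bmp7, its close relative. Of the other receptors and co-receptors, 7 of 8 were tested and 1 was called lower. This was Rgma, a membrane-anchored co-receptor that binds BMP ligands, at 111.8 ± 6.05 CPM in siNC and 77.5 ± 9.01 CPM in siEgr2 (SD, n = 6 each), a log2 fold change of -0.53 (adjusted p = 3.92e-05) that dropped to -0.50 and just under the fold threshold without siEgr2 replicate 4.

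Of 15 secreted inhibitors 10 were tested, and 2 were called lower. Fstl1, a follistatin-related secreted protein reported to bind BMP4, stood at 284.5 ± 13.4 CPM in siNC and 196.0 ± 7.30 CPM in siEgr2 (log2 fold change -0.54, adjusted p = 1.27e-07). Nbl1, also named DAN, stood at 30.8 ± 3.80 and 19.6 ± 1.61 CPM (log2 fold change -0.66, adjusted p = 7.68e-05). Of the same list, Dand5 passed the adjusted p in the other direction at 0.49 (adjusted p = 0.0265). Of the 8 inhibitors that act in or on the receiving cell, all were tested and 2 were called lower. Smad6, an inhibitory Smad that is itself induced by BMP signals, fell by 1.13 on the log2 scale (SE 0.29, adjusted p = 0.0104). It had only 12 to 58 counts in the siEgr2 libraries, and its replicate 4 at 4.34 CPM lay within the siNC range of 3.37 to 5.36 CPM. Bambi, a pseudoreceptor that lacks the kinase domain, fell by 0.64 on the log2 scale (SE 0.17, adjusted p = 0.0120) and had 33 to 82 counts in siEgr2. Ski, a nuclear repressor of Smad complexes, passed the adjusted p alone at -0.21 (adjusted p = 0.00633), and Smad7 was at -0.16 (adjusted p = 0.222).

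Among the other Smads, none of 3 was called. Smad9, which acts beside Smad1 and Smad5, was at -0.42 (SE 0.11, adjusted p = 0.0113), with 16 to 22.5 CPM in siNC and 11.3 to 14.95 CPM in siEgr2 and no overlap. Smad5 varied between libraries, with 85.2 to 169.0 CPM in siNC and 86.6 to 157.0 CPM in siEgr2, and its log2 fold change was 0.19 (SE 0.21, adjusted p = 0.603). Over the alternatives Smad5 lay between 0.0018 and 0.31 and passed in none. Smad4, the partner shared with TGF-beta signalling, was at 0.25 (adjusted p = 0.0194). Smad9 and Smad4 thus passed the adjusted p in opposite directions, while Smad5 and Smad1 did not pass, and with every library thinned to the same total Smad9 was at -0.37 and did not pass either (adjusted p = 0.0706).

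Of 11 other target genes 8 were tested and 1 was called lower. Hes1, a bHLH repressor better known as a Notch target, fell by 0.75 on the log2 scale (SE 0.20, adjusted p = 0.0149), from 5.63 ± 1.11 to 3.32 ± 1.03 CPM (SD, n = 6 each). Its relative Hey1 passed the adjusted p alone at -0.35 (adjusted p = 0.000253). Of the 7 bHLH factors that Id proteins bind, directly or through shared partners, or that act beside them, none was called, and Olig1 and Olig2 were among those that passed the adjusted p with higher levels. Olig2, which specifies the lineage, rose from 635.4 ± 17.0 to 770.0 ± 9.83 CPM (SD, n = 6 each), a log2 fold change of 0.28 (adjusted p = 1.88e-06). Olig1 rose by 0.26 on the log2 scale (adjusted p = 3.41e-05). Scaled by library size alone, Olig2 was at 0.095 (adjusted p = 0.0320) and Olig1 at 0.077 (adjusted p = 0.0575), so the size of these rises depended on the scaling.

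Markers of other cell types moved with the same groups. Of the 10 astrocyte markers, 5 were called lower and 7 passed the adjusted p, all lower, with a median log2 fold change of -0.58, and all 10 were below 0. The summed level of the astrocyte markers in siEgr2 lay wholly below that in siNC. Gfap made up much of that sum, averaging 4777 CPM in siNC and 3242 CPM in siEgr2. The sums of the myelinating OL markers and of the neuron markers also lay wholly below those in siNC. Id1, Id3 and Id4 together did so as well, at 294.7 to 339.7 CPM in siNC and 200.9 to 237.8 CPM in siEgr2. Of the 6 OL precursor markers, 2 were called higher (Pdgfra and Cspg4) and 4 passed the adjusted p, with summed levels of 2678 to 3066 CPM in siNC and 3375 to 3652 CPM in siEgr2. The 8 myelinating OL markers had a median of -0.20 with 0 called and 3 past the adjusted p, all lower. The newly formed OL markers, 4 of 5 of which were in the table, summed to 2209 to 2487 CPM in siNC and 2135 to 3102 CPM in siEgr2. The median of these 4 was -0.136, with 3 below 0, 0 called and 1 past the adjusted p, which was lower.

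Of 7 fibroblast and pericyte markers 3 were called lower, where 5.08% of all genes were, and 4 passed the adjusted p, all lower. All 7 were below 0, with a median log2 fold change of -0.453. Their summed levels overlapped, at 681.0 to 1108 CPM in siNC and 668.7 to 801.1 CPM in siEgr2. Neuron markers summed to 136.1 to 155.2 CPM in siNC and 117.9 to 129.8 CPM in siEgr2, with 1 of 6 tested called lower. Microglia markers (0 of 4 tested called) and endothelial markers (1 of 3 tested called lower) summed to under 40 CPM in every library, and Aif1 and Cldn5 were at 0 in all libraries. No defining marker of astrocytes, OLs or their precursors was at 0. The part of cell composition in the differences of Bmp7 and the Id genes was not tested.

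**Figure D5:**
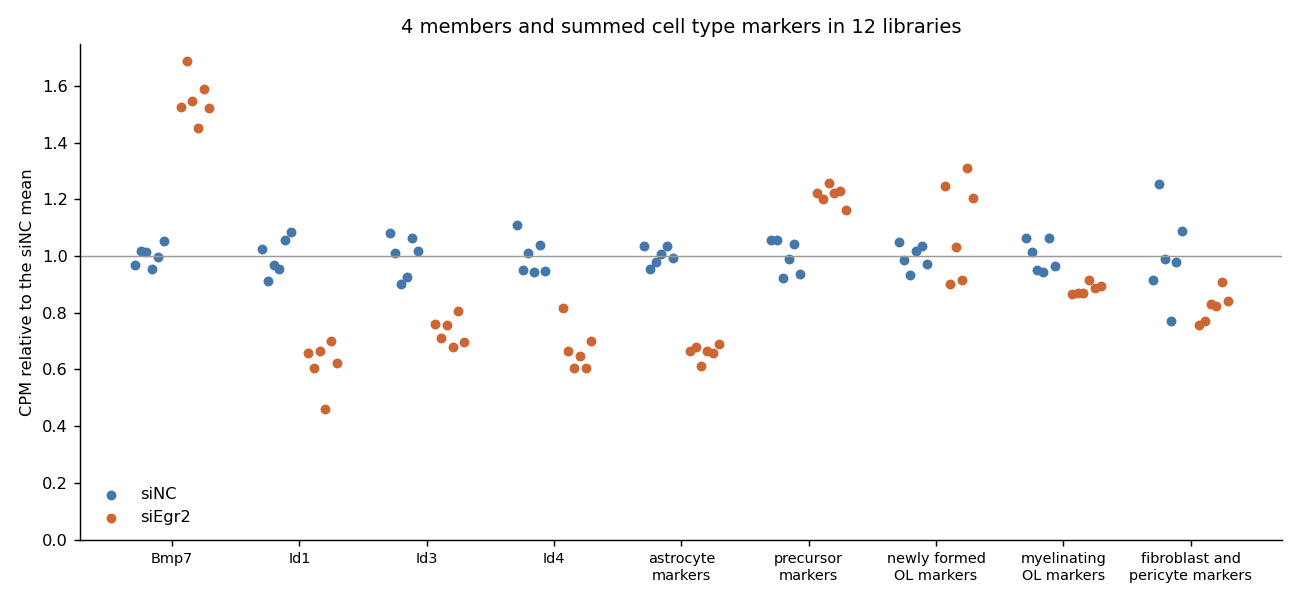
Level of Bmp7, Id1, Id3 and Id4 and summed level of 5 lists of cell type markers in each library, relative to the siNC mean (vertical axis, ratio of CPM), with siNC in blue and siEgr2 in orange. In siEgr2 the astrocyte markers lay at 0.612 to 0.691 of the siNC mean, beside 0.460 to 0.702 for Id1, 0.680 to 0.805 for Id3 and 0.605 to 0.815 for Id4, while Bmp7 lay at 1.45 to 1.69 and the precursor markers at 1.16 to 1.26. The myelinating OL markers lay at 0.866 to 0.914, the fibroblast and pericyte markers at 0.757 to 0.907 and the newly formed OL markers at 0.902 to 1.31.

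Within the groups, the 10 genes varied together only in part. After the group means were subtracted, Pearson's r of log2 CPM over the 12 libraries ranged from -0.64 to 0.71 over the 45 pairs of these genes, with a median of 0.15, and r was 0.65 between Id1 and Id3, 0.085 between Id1 and Id4 and 0.12 between Id3 and Id4. These values describe 12 libraries that share their scaling and differ in depth. A search in the same way covered the 10864 genes whose log2 CPM averaged 3 or more. Picking the 3 highest r from so many genes over 12 libraries favours high values. The genes found are a description, and a shared regulation was not tested. The most like Id1 were C87436 (r = 0.93), Gm16867 (0.92) and Mdh1 (0.92), the most like Id3 were Inppl1 (0.93), Lrfn3 (0.92) and Chpt1 (0.91), and the most like Id4 were Ccdc186 (0.93), Vmp1 (0.91) and Nars (0.91). For Bmp4 they were Ndufs4 (0.94), Rrm2b (0.93) and Golga7 (0.93). No gene was named for more than 1 of these members, and none of the 12 was called between the groups.

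Exons of 3 of the 10 genes overlap a gene on the opposite strand in the annotation, and the strand setting of the counting is not given in the sources used here. Gm15217 shares 89 bases with Bmp4 and had 0 counts. Gm17110 shares 290 bases with Bmpr1a and had 32 counts in all libraries against 62646 for Bmpr1a. A330033J07Rik and Gm49291 share 82 and 171 bases with Id4 and had 6 and 163 counts against 16161 for Id4.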

How the data were processed

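RNA-seq of 12 libraries of primary mouse OLs was analyzed, 6 treated with siEgr2 and 6 with siNC, grouped by the labels. Total RNA was isolated by the authors with TRIzol and sequenced as adapter-ligated Illumina libraries, and the deposited values are raw counts per symbol without normalization. The submitters' processing notes name mm10, and the aligner, the counting program and the strand setting are not given in the sources used here. The table held 1 blank entry, with 0 counts, which was left out.

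Depth was 8034251 to 39383014 counts per library, and the lower depth of siEgr2 limits precision for genes with few counts. The filterByExpr function of edgeR 4.0.16 (R 4.3.3, limma 3.58.1) removed low counts, TMM factors set the scale, and the robust quasi-likelihood test of edgeR, without a covariate, compared the groups, with Benjamini-Hochberg adjustment over 16600 genes. Every adjusted p outside the ratios comes from this test or the named alternative. Calls needed an adjusted p below 0.05 and a log2 fold change of more than 0.5 in size. Ratios used log2 of counts plus 0.5. Alternatives were RLE, upper-quartile or library-size scaling, DESeq2 1.42.0, limma-voom, other filters and pseudocounts, thinning, structural RNA genes left out, a replicate block, and each library left out.

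The members, gene lists and tests were chosen with earlier results of these data known. Genes named with values were the 10 members, Egr2, the called genes of each pathway list, the paralogs Id2, Smad5 and Smad9, and the 3 genes most like Id1, Id3, Id4 and Bmp4. Others (Smad4, Smad7, Ski, Dand5, Hey1, Olig1 and Olig2) were chosen from the lists after their values were seen, and 1 gene of the lists is not reported here. Gene positions and exon lengths came from GENCODE M21 on GRCm38, and promoters from RefSeq. Protein sequences and the promoters of Bmp2, Bmp7 and Id1 were not used here.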

Additional observations from a re-analysis of the deposited data

Results flagged for a closer look

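The level of Bmp2 in siEgr2 replicate 5 was 2.305 CPM, from 18 counts, while the other 5 siEgr2 libraries lay between 0.618 and 1.22 CPM. The gap to the next library took 0.643 of the range of the group, above the 95% critical value of Dixon's test for 6 samples. This library was the shallowest of the 12. Chance flags about 1 in 20 groups, so that 1.2 would come from the 24 groups of 6 values examined, and 1 was found.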

How the results depend on the processing

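Scaled by library size alone, 1974 genes were called (237 higher and 1737 lower) in place of 1281 (437 higher and 844 lower), 4 of the 10 members were called, all lower, and 11 other pathway genes were called. The log2 fold change was then -0.040 for Bmp4, 0.45 for Bmp7, -0.68 for Bmpr1b, -0.63 for Id3, -0.60 for Smad9, -0.54 for Hey1 and -0.70 for Egr2, which was then called (adjusted p = 0.0144). Without a fold threshold 3300 genes and 5 members passed. Leaving out each library in turn gave ranges of -0.87 to -0.45 for Bmp2, -0.63 to -0.36 for Bmpr1b, -0.094 to 0.0030 for Bmpr2, -0.95 to -0.59 for the ratio of Bmp2 to Bmp4, 0.18 to 0.44 for Bmpr1a to Bmpr1b and -0.54 to -0.33 for Bmpr1b to Bmpr2. Bmpr2 was above 0 only without siNC replicate 1. Smad1 ranged from -0.15 without siEgr2 replicate 2 to -0.059 without siNC replicate 6. Members called were 4 without siNC replicate 4 or siEgr2 replicate 5 and 3 without any other library. With every library thinned to the same total the ratio of Id1 to Id3 differed by -0.19 (adjusted p = 0.123). Labels number the replicates of both groups 1 to 6. Deviations of same-numbered libraries correlated between -0.021 and 0.052, and 2 of 6 libraries correlated best with their own number. Such low correlations cannot show whether same-numbered libraries shared a culture or batch, and the main test did not pair them. With a replicate block 1124 genes and 3 members were called, and the ratios of Bmp2 to Bmp7, Bmp4 to Bmp7 and Id1 to Id3 were -1.24, -0.49 and -0.26 with adjusted p of 0.0938 in an exact sign-flip permutation test, whose smallest p is 0.0312 before adjustment. The cause of these changes was not tested. The lower depth of siEgr2 limits genes with few counts, such as Bmp2 and Smad6.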
